A study of Mus musculus with 17 samples.

Results

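Histone acetylation is set by enzymes that add acetyl groups, enzymes that remove them, and proteins that bind the acetylated tail. Grouped by family, the 32 genes described here encode 12 writers (lysine acetyltransferases and nuclear receptor coactivators), 18 erasers (11 zinc-dependent histone deacetylases and 7 sirtuins) and 2 readers (the BET bromodomain proteins Brd2 and Brd3). The rule that picked them from a table of 24498 gene symbols uses symbol and function and no measured value, but it was set with earlier results of these data known. All 32 passed the filter on low counts. RNA was sequenced in bulk from 1 mm slices of mouse dorsal hippocampus. Wild-type mice (WT) were set beside mice with a constitutive knockout (KO) of Acss2, which encodes the enzyme that makes acetyl-CoA from acetate. They were injected in the right dorsal hippocampus at 6 months of age with 1 µg of tau extracted from brains with Alzheimer's disease (Tau) or with saline (PBS), and were studied 6 months later. In males, WT and KO mice under PBS and under Tau gave 4 groups of 3 libraries. In females, all under Tau, there were 3 KO and 2 WT libraries. With no PBS libraries of females, Tau could be compared with PBS in males only. The knockout was not restricted to a cell type, and KO and WT mice came from separate homozygous crosses of F1 offspring, so genotype and litter cannot be told apart. The strain was not given in the sources used here, and the labels do not say whether each library is a different mouse, so p-values measure the spread between these libraries.

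Writers transfer the acetyl group of acetyl-CoA to lysines of the histone tails, which is associated with open, transcribed chromatin. CBP (Crebbp) and p300 (Ep300) are broad coactivator acetyltransferases that act with activity-dependent transcription factors in neurons, and ACSS2 is known to supply acetyl-CoA to acetyltransferases on neuronal chromatin. Class I histone deacetylases remove the mark in corepressor complexes, whereas class IIa members are signal-responsive shuttles between nucleus and cytoplasm. Sirtuins use NAD as a cofactor.

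The libraries held 14183131 to 22463635 counts, and the member with the fewest counts in any library, Sirt5, still had 121. Acss2 was measured at 3.08 to 8.88 CPM (counts scaled to a common total per library, with TMM factors) in the 9 KO libraries and 44.5 to 55.7 CPM in the 8 WT ones, so the genotypes did not overlap. Markers of dentate granule and pyramidal cells were present in every library, but some libraries stood apart. The 9 striatal markers summed to 820.1 CPM in male KO PBS 752 against 217 to 230.1 CPM in male WT PBS, with the 12 dentate markers at 322 against 427 to 635 CPM and the 8 CA1 markers at 457 against 852 to 897 CPM. Male KO Tau 711 had 4367 CPM of the 9 astrocyte markers, against 2371 to 3109 CPM in the 9 libraries of the other male groups, and male KO Tau 713 had 4210.1 CPM of the 13 choroid plexus markers, against 29.3 to 601 CPM in those 9. Male KO Tau 712 had the lowest dentate sum of the 17 libraries, 300.5 CPM. By mean log2 CPM over the 12 dentate markers, 752 was the lowest, at 3.28 against 3.85 in 712. Libraries 752, 712 and 713 had means of 5.84, 5.86 and 5.73 log2 CPM over the 8 neocortex markers, against 4.64 to 5.27 in the 6 male WT libraries. In bulk tissue, fewer cells of a type and less RNA per cell cannot be told apart.

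Promoter sequence is shown for 4 members around which the results below turn: Hdac4 and Hdac9, related class IIa deacetylases whose fold changes between the genotypes had opposite signs in males, and Kat2a and Kat7, a pair of acetyltransferase genes that were lower in female than in male libraries. Each line runs 5′ to 3′ on the strand of the gene, from 250 bases before to 50 bases within the RefSeq start (GRCm38.p6), and capitals mark the GC box GGGCGG, the CCAAT box CCAAT and the TATA box TATAAA, searched on both strands, with no marked box overlapping another.
Hdac4 (chr1:92180292-92180591, minus strand): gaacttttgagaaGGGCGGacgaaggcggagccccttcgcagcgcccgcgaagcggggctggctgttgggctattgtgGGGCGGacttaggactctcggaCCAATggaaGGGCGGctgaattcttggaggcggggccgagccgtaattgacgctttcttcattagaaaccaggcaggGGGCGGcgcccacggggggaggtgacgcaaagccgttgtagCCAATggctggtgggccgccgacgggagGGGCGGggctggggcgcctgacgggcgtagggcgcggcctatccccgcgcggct
Hdac9 (chr12:34917046-34917345, minus strand): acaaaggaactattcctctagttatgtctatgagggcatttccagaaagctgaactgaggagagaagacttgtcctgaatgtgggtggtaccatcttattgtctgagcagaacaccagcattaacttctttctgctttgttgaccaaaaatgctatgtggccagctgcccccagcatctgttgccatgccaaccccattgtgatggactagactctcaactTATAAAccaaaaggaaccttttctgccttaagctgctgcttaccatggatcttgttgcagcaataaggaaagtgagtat
Kat2a (chr11:100712418-100712717, minus strand): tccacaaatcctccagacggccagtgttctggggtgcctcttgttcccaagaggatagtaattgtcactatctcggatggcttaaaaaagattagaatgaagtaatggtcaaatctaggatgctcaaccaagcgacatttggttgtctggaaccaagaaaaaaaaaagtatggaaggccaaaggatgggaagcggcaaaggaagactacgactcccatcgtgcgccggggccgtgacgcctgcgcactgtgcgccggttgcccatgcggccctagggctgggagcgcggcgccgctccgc
Kat7 (chr11:95310197-95310496, minus strand): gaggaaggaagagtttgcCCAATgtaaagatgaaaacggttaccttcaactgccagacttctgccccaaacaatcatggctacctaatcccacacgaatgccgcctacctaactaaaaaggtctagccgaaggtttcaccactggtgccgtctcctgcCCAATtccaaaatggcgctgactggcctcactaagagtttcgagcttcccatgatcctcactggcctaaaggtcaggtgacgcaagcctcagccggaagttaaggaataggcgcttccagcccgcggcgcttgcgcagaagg
The Hdac4 window held 5 GC boxes, 2 CCAAT boxes and 32 CpG dinucleotides. The Hdac9 window had no CpG and 1 TATA box. Kat2a had none of the 3 boxes and 19 CpG, so it could share no box with another gene, and Kat7 had 2 CCAAT boxes and 14 CpG. RefSeq windows were at hand for 27 of the 32 members (not Kat6a, Ncoa3, Hdac1, Hdac3 and Hdac10). A GC box on either strand was in 59.3% of the 27 against 35.7% of all 32851 windows, a CCAAT box in 44.4% against 37.4% and a TATA box in 7.41% against 13.6%. The cAMP response element TGACGTCA was in 0 of the 27 windows and in 1.79% of all windows. The median was 20 CpG per window for the members and 7 for all promoters. Each of the 27 members had 1 window, whereas the 32851 were not limited to 1 per gene or to expressed genes, so the 2 sets are not matched. The RefSeq start of Hdac4 lay 15358 bases inside the gene's GENCODE span, at the start of a shorter GENCODE transcript, so its window is not that of the outermost start, whereas those of Hdac9, Kat2a and Kat7 lay within 2 bases of the outermost GENCODE start. These counts describe letters in a window and not binding.

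Levels of different genes were compared as CPM per kilobase of exon in male WT PBS, with the SD over 3 libraries. The most abundant member was Hdac11, the sole class IV deacetylase, at 64.4 ± 2.02 CPM per kb. It was followed by the reader Brd2 (30.1 ± 0.201 CPM per kb), the class IIa deacetylase Hdac5 (26.6 ± 1.09 CPM per kb) and the writer Kat2a (22.7 ± 0.831 CPM per kb). Hdac3, Ncoa1 and Hdac2 came next at 21.7 ± 0.262, 21.4 ± 1.41 and 20.6 ± 0.531 CPM per kb, and their order was within the spread of Ncoa1. Among writers, those of CBP and p300 stood low on this scale, Crebbp at 3.22 ± 0.185 and Ep300 at 5.37 ± 0.474 CPM per kb, below Kat7 (18.7 ± 0.246), Kat5 (17.5 ± 0.404) and Kat6a (8.17 ± 0.985). Sirt2, a tubulin and histone deacetylase abundant in myelin, was the highest sirtuin at 18.2 ± 1.48 CPM per kb, followed by the mitochondrial Sirt3 at 10.2 ± 0.202 CPM per kb. The lowest members were Hdac4 (2.93 ± 0.124), Sirt1 (2.93 ± 0.275), Hdac8 (2.63 ± 0.155) and the mitochondrial Sirt5 (1.62 ± 0.215 CPM per kb), with Hdac4 and Sirt1 not separated by their spread. The span from Sirt5 to Hdac11 is shown in the plot of levels by gene.

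**Figure D1:**
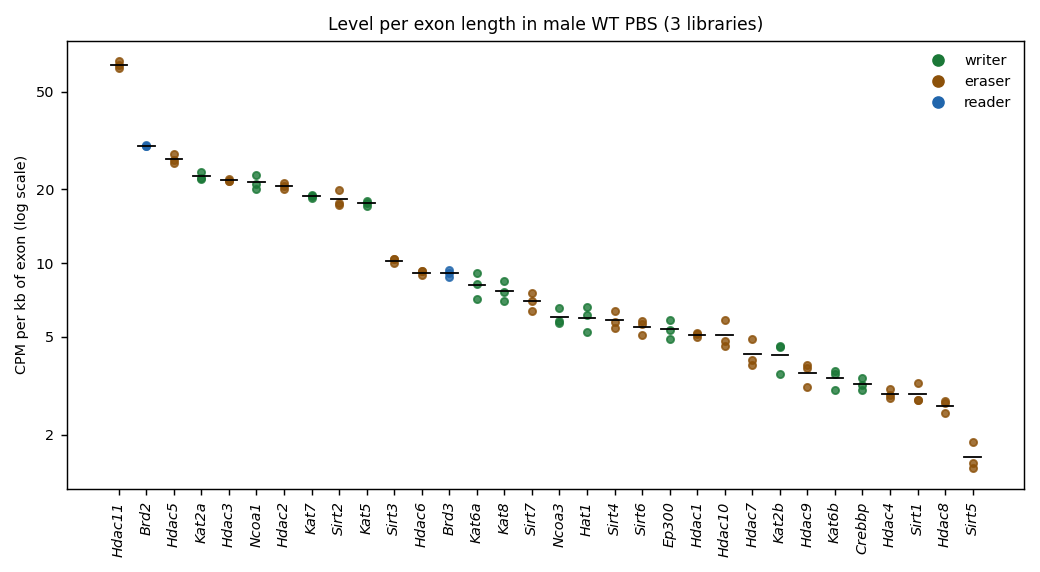
CPM per kilobase of exon (log scale) of the 32 genes in the 3 male WT PBS libraries, ordered by mean. Points are libraries, bars are means and colour gives the role. Hdac11 sits highest at 64.4 and Sirt5 lowest at 1.62 CPM per kb.

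Summed over roles, the 12 writers made up 787 ± 38.2 CPM in male WT PBS (SD, n = 3), the 18 erasers 1134 ± 20.51 CPM and the 2 readers 303 ± 0.773 CPM. The writers summed to 774 ± 20.1 CPM in male WT Tau, 825 ± 33.8 CPM in male KO PBS and 749 ± 24.9 CPM in male KO Tau. The erasers summed to 1082 ± 34.0, 1065 ± 83.03 and 1137 ± 9.76 CPM in the same order. In females the writers summed to 645 ± 79.2 CPM in WT Tau (n = 2) and 709.5 ± 40.1 CPM in KO Tau, below every male group mean. The erasers summed to 1038 ± 112.5 CPM in female WT Tau and 1063 ± 11.9 CPM in female KO Tau, also below every male group mean. The readers summed to 274 ± 3.32 and 295 ± 20.6 CPM in these groups, against 293 CPM in male WT Tau and 292 CPM in male KO PBS. No test was run on the sums. The erasers were grouped by family and not all act on histones, so their sum is not one of histone deacetylases alone. It includes the tubulin deacetylase Hdac6, the polyamine deacetylase Hdac10 and the mitochondrial Sirt3, Sirt4 and Sirt5. Single genes spread further, such as Hdac7, whose lowest male library had 15.6 CPM (male KO PBS 751) and highest 33.0 CPM (male WT PBS 791).

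**Figure D2:**
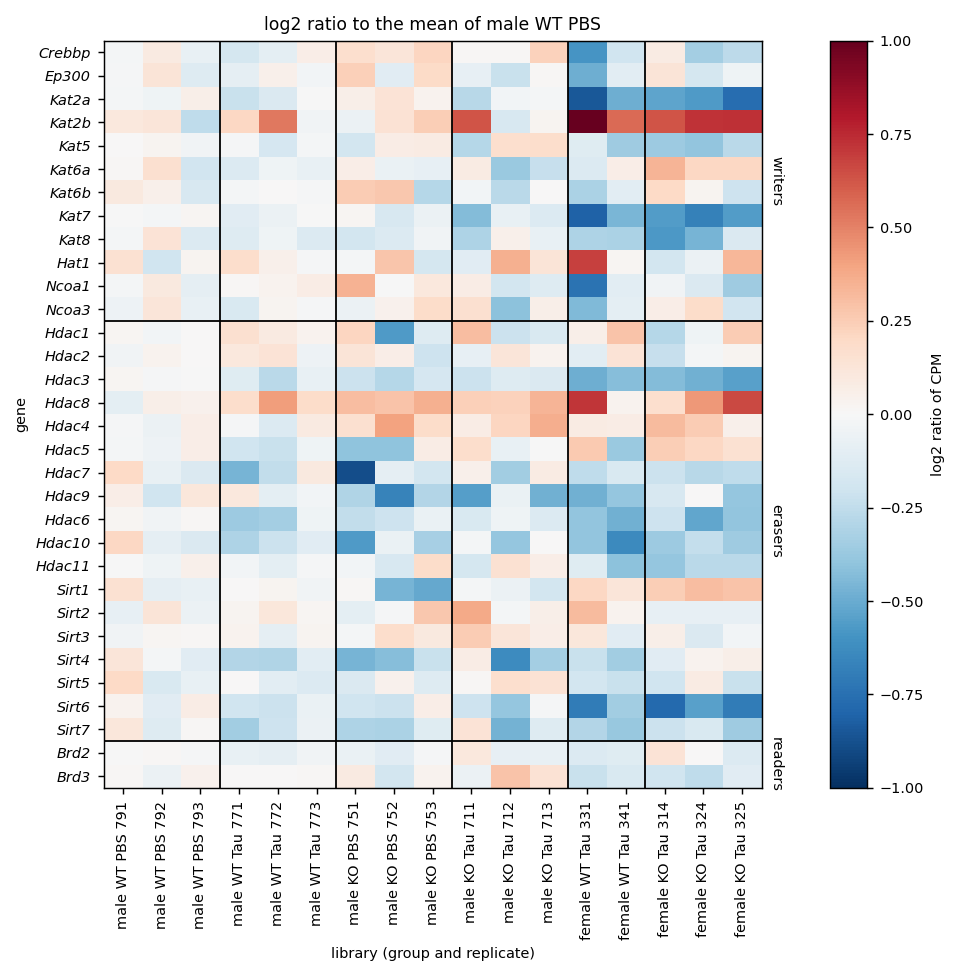
log2 ratio of each gene's CPM to its mean in male WT PBS, for 32 genes (rows, by role) and 17 libraries (columns, by group). Most male squares are pale, while in the 5 female libraries Kat2a, Kat7, Hdac3 and Sirt6 are blue and Kat2b is red.

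In males, the comparisons asked whether Tau, the loss of Acss2 or both altered the genes of the acetylation machinery. No member passed a false discovery rate (FDR) of 0.05 in any of them by the quasi-likelihood F-test of edgeR. Tau against PBS in WT males called 0 of 32 members (0% of all genes), and 3 had an unadjusted p under 0.05 (1.86% of all genes). KO against WT under PBS called 0 of 32 (0.00662% of all genes, which was Acss2 alone) with 5 at the unadjusted level (4.42%). For KO Tau against WT PBS, the numbers were 0 (0.00662%) and 4 (6.33%). In each male comparison where any gene passed the FDR, that gene was Acss2. KO against WT under Tau gave 0 (0.00662%) and 2 (4.71%), and Tau against PBS in KO males gave 0 (0%) and 1 (7.95%). For KO against WT averaged over treatment, 0 passed the FDR (0.00662%) and 5 the unadjusted level (4.58%), and for Tau against PBS averaged over genotype, 0 (0%) and 1 (5.38%). The joint test of the 4 male groups gave 0 (0.00662%) and 3 (4.5%), and the genotype by treatment interaction gave 0 (0%) and 2 (4.18%). At the unadjusted level the members' share was above that of all genes in 7 of these 9 comparisons and below it in 2. The highest share was 15.6%, reached for KO under PBS against 4.42% of all genes and for KO averaged over treatment against 4.58%. The same few genes, Hdac3, Hdac4, Hdac8 and Hdac9, recur in these counts, and the comparisons share libraries, so the counts are not separate evidence.

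The intervals bound how large a difference could have gone unseen. In all 5 pairs of male groups, the 95% interval of every one of the 32 members lay within 1 log2 unit of 0. The lowest bound over members in KO Tau against WT PBS was -0.67 and the highest 0.66, and in KO against WT under PBS they were -0.80 and 0.57. The median log2 fold change over the members was -0.06 for Tau in WT, -0.02 for KO under PBS, -0.05 for KO Tau against WT PBS and 0.02 for KO under Tau, against medians over all genes of -0.01, 0.01, -0.00320 and 0.00722. Without male KO Tau 711, and with only the groups compared in the fit, many more genes passed the FDR, and 0 of the 32 members did. For KO Tau against WT PBS that fit called 4.15% of genes by edgeR and 7.13% by DESeq2, and for KO against WT under Tau 4.88% and 9.3%. At such shares few of 32 genes would be called, so the 0 does not set the members apart. Over the 33 alternative fits of each comparison, the lowest FDR of Hdac4 was 0.0698 for KO Tau against WT PBS and 0.0762 for KO against WT under Tau.

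**Figure D3:**
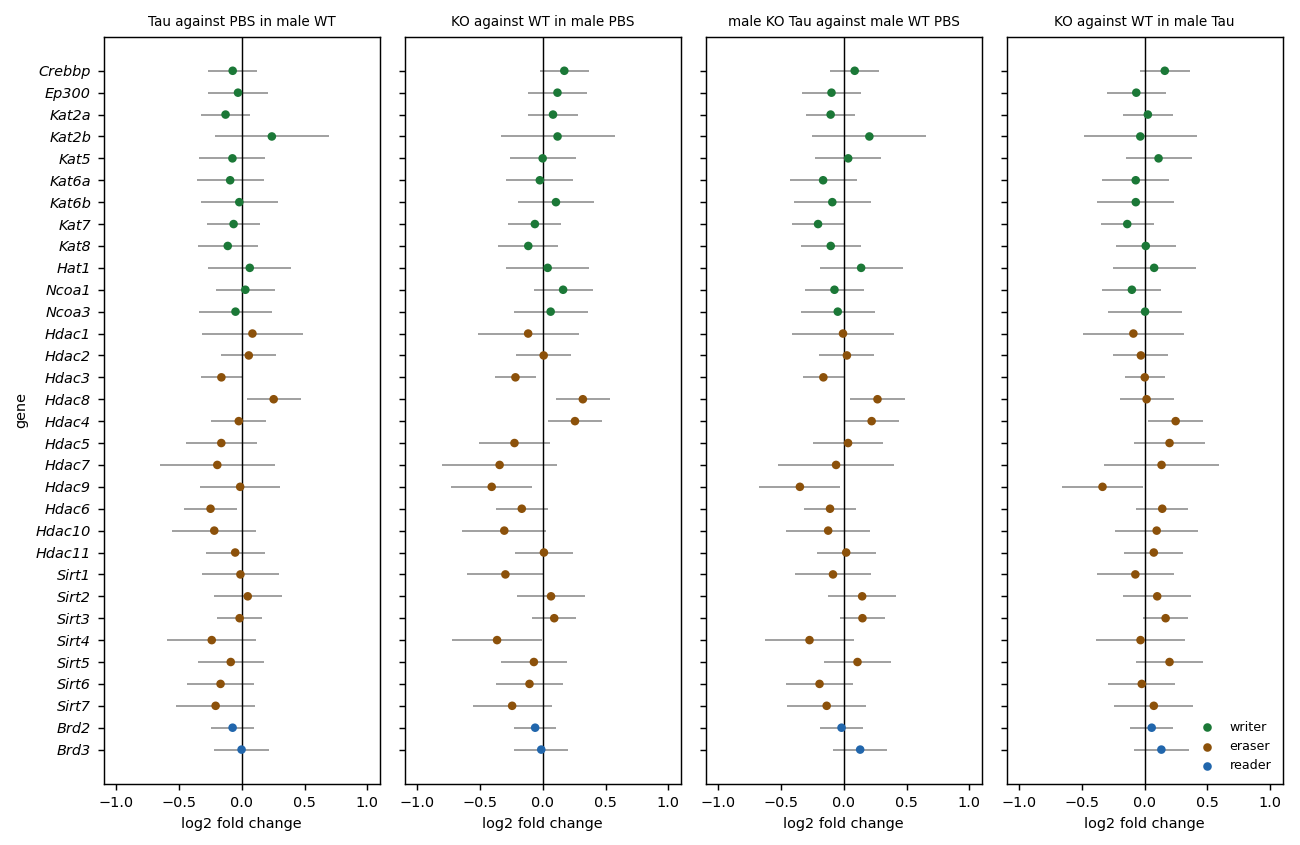
log2 fold changes with 95% intervals (edgeR, 12 male libraries) of the 32 genes in 4 comparisons of male groups, with colour for the role. All intervals lie within 1 log2 unit of 0, and those of Hdac3, Hdac8, Hdac4 and Hdac9 leave out 0 in 3 of the 4 comparisons.

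Among the writers, CBP and p300 are the acetyltransferases most tied to memory-related transcription. Crebbp stood at 43.1, 46.3 and 41.4 CPM in male WT PBS and at 38.7, 40.8 and 45.6 CPM in male WT Tau. Male knockouts gave Crebbp levels of 48.8, 47.4 and 50.7 CPM under PBS and 44.0, 44.0 and 51.0 CPM under Tau. Among females, Crebbp measured 28.9 and 38.0 CPM in WT Tau and 46.2, 34.4 and 36.4 CPM in KO Tau. Crebbp libraries of male KO PBS all lay above those of male WT PBS. Its log2 fold change was 0.17 (SE 0.09, unadjusted p = 0.0822) for KO under PBS, 0.16 (SE 0.09, unadjusted p = 0.103) for KO under Tau and 0.17 (SE 0.06, unadjusted p = 0.0240) averaged over treatment (FDR 0.945). Without 752 the Crebbp average was 0.18, and without 711 it was 0.18. Ep300 encodes the close paralog of CBP. In males, Ep300 measured 75.9, 83.7 and 70.2 CPM in WT PBS and 71.9, 79.5 and 75.0 CPM in WT Tau. The Ep300 levels were 90.5, 70.8 and 87.3 CPM in male KO PBS and 72.3, 65.6 and 77.1 CPM in male KO Tau. For Ep300, females gave 54.5 and 71.1 CPM in WT Tau and 83.8, 67.8 and 74.5 CPM in KO Tau. Ep300 groups overlapped in every male pair, with log2 fold changes of 0.12 (SE 0.11) for KO under PBS and -0.03 (SE 0.11) for Tau in WT. The interval of Ep300 in KO Tau against WT PBS was -0.33 to 0.14. Female WT Tau 331 had the lowest level of both genes.

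Kat2a (GCN5) and Kat2b (PCAF) are paralogous acetyltransferases of the SAGA and ATAC complexes. Kat2a stood at 77.7, 76.8 and 82.2 CPM in male WT PBS and at 67.6, 71.3 and 78.8 CPM in male WT Tau. Male knockouts gave Kat2a levels of 82.1, 86.8 and 80.9 CPM under PBS and 65.0, 77.3 and 77.9 CPM under Tau. Among females, Kat2a measured 43.9 and 56.2 CPM in WT Tau and 54.7, 53.3 and 46.6 CPM in KO Tau. Male KO Tau had lower Kat2a values than male KO PBS in every library, and the log2 fold change of Tau averaged over genotype was -0.16 (SE 0.06, unadjusted p = 0.0303), with an FDR of 0.888. Without 711, the lowest male library, it was -0.12 (unadjusted p = 0.0513). The female values lay below all 12 male values. In males, Kat2b measured 22.2, 22.4 and 17.3 CPM in WT PBS and 23.8, 29.7 and 20.1 CPM in WT Tau. The Kat2b levels were 19.8, 22.8 and 24.4 CPM in male KO PBS and 31.9, 18.5 and 21.1 CPM in male KO Tau. For Kat2b, females gave 41.2 and 30.6 CPM in WT Tau and 31.8, 33.9 and 34.2 CPM in KO Tau. Kat2b varied more among males, and its interval for Tau in WT ran from -0.21 to 0.69. Kat2b has annotated processed pseudogenes, which can share reads with it.

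The MYST family holds Kat5 (TIP60), Kat6a, Kat6b, Kat7 (HBO1) and Kat8 (MOF), which acetylate histones H3 and H4 in separate complexes. Kat7 stood at 104, 102 and 105 CPM in male WT PBS and at 95.9, 99.7 and 104 CPM in male WT Tau. Male knockouts gave Kat7 levels of 105, 92.6 and 99.5 CPM under PBS and 77.0, 98.7 and 94.5 CPM under Tau. Among females, Kat7 measured 59.2 and 75.5 CPM in WT Tau and 70.6, 65.0 and 70.3 CPM in KO Tau. Each male KO Tau library was below each male WT PBS library for Kat7, with a log2 fold change of -0.20 (SE 0.10, unadjusted p = 0.0556), and 711 was the lowest male library. Without 711 that fold change was -0.11 (unadjusted p = 0.190). Kat5 is the catalytic subunit of the NuA4 complex. In males, Kat5 measured 61.6, 62.8 and 59.9 CPM in WT PBS and 60.9, 54.7 and 60.6 CPM in WT Tau. The Kat5 levels were 54.2, 64.5 and 65.1 CPM in male KO PBS and 50.5, 69.1 and 69.3 CPM in male KO Tau. For Kat5, females gave 56.5 and 48.0 CPM in WT Tau and 47.7, 46.7 and 51.0 CPM in KO Tau. Kat5 in 711 lay below all other males, and the male groups overlapped in all 5 pairs. The male ranges of the rest were 57.9 to 83.8 CPM for Kat6a, 47.1 to 69.2 CPM for Kat6b and 18.0 to 24.5 CPM for Kat8, with no male comparison of these 3 at an unadjusted p under 0.05.

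Hat1 encodes the type B acetyltransferase that modifies newly made histones before they are deposited. Hat1 stood at 19.2, 15.1 and 17.7 CPM in male WT PBS and at 19.5, 17.9 and 17.1 CPM in male WT Tau. Male knockouts gave Hat1 levels of 17.05, 20.95 and 15.3 CPM under PBS and 16.0, 22.2 and 18.9 CPM under Tau. Among females, Hat1 measured 27.9 and 17.6 CPM in WT Tau and 15.3, 16.6 and 21.8 CPM in KO Tau. Hat1 libraries of all male groups overlapped, and its highest value was in female WT Tau 331. Ncoa1 and Ncoa3 encode p160 coactivators of nuclear receptors. In males, Ncoa1 measured 181, 196 and 172 CPM in WT PBS and 184, 187 and 192 CPM in WT Tau. The Ncoa1 levels were 234, 182 and 197 CPM in male KO PBS and 193, 162 and 168 CPM in male KO Tau. For Ncoa1, females gave 109.8 and 169.9 CPM in WT Tau and 178, 166 and 143 CPM in KO Tau. Ncoa1 had a log2 fold change for Tau in KO males of -0.24 (SE 0.11, unadjusted p = 0.04999), with the values of those groups overlapping. Without 711 it was -0.32 (unadjusted p = 0.0119). Ncoa3 ranged from 35.7 to 54.0 CPM in males.

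The separation of groups was also described by whether their libraries overlapped. Those of WT Tau and WT PBS did not overlap for 5 of 32 members (12.1% of all genes), those of KO PBS and WT PBS for 8 (10.1%) and those of KO Tau and WT PBS for 6 (14.2%). KO Tau and WT Tau did not overlap for 2 (12.3%), and KO Tau and KO PBS for 1 (8.62%). No member separated all 6 KO from all 6 WT males (0.265% of all genes). Male WT PBS did not overlap the other 9 male libraries for 3 members, Hdac8, Hdac3 and Hdac6, against 0.676% of all genes. That last grouping was chosen after the values were seen, and it sets 1 group of 3 libraries against the rest, so all 3 members rest on the same WT PBS libraries.

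Hdac3, Hdac8, Hdac1 and Hdac2 are the class I deacetylases. Hdac3 acts as the catalytic subunit of nuclear receptor corepressor complexes. Hdac3 stood at 89.3, 87.3 and 87.7 CPM in male WT PBS and at 81.1, 73.0 and 83.6 CPM in male WT Tau. Male knockouts gave Hdac3 levels of 76.1, 72.4 and 78.4 CPM under PBS and 75.9, 80.8 and 79.7 CPM under Tau. Among females, Hdac3 measured 62.7 and 65.7 CPM in WT Tau and 65.3, 63.3 and 60.6 CPM in KO Tau. The 3 WT PBS values of Hdac3 lay above the other 9 male values, and the female values lay below all of these. The log2 fold change against WT PBS was -0.16 (SE 0.07, unadjusted p = 0.0476) for WT Tau, -0.22 (SE 0.07, unadjusted p = 0.0123) for KO PBS and -0.16 (SE 0.07, unadjusted p = 0.0481) for KO Tau. Without 752 the KO PBS value of Hdac3 was -0.19 (unadjusted p = 0.0431), and without 711 the KO Tau value was -0.14 (unadjusted p = 0.0936). None of these passed the FDR, and the smallest over the 33 alternatives of the KO PBS comparison was 0.382.

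Hdac8 lies on chromosome X (chrX:102284639-102505359, minus strand, GRCm38) and encodes a class I deacetylase that acts on cohesin. Hdac8 stood at 11.9, 13.2 and 13.1 CPM in male WT PBS and at 14.4, 16.95 and 14.5 CPM in male WT Tau. Male knockouts gave Hdac8 levels of 15.8, 15.5 and 16.2 CPM under PBS and 15.0, 14.9 and 16.1 CPM under Tau. Among females, Hdac8 measured 20.8 and 13.02 CPM in WT Tau and 14.3, 17.1 and 20.0 CPM in KO Tau. Here the 3 WT PBS values were the lowest of the 12 male values. The log2 fold change against WT PBS was 0.25 (SE 0.10, unadjusted p = 0.0252) for WT Tau, 0.32 (SE 0.10, unadjusted p = 0.00755) for KO PBS and 0.27 (SE 0.10, unadjusted p = 0.0191) for KO Tau. KO against WT under Tau was 0.01 (SE 0.10), with the interval -0.20 to 0.23. Over 33 alternatives the KO PBS value ran from 0.27 to 0.36, with no FDR below 0.333. Without 711 the KO Tau value was 0.28 (unadjusted p = 0.0240).

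**Figure D4:**
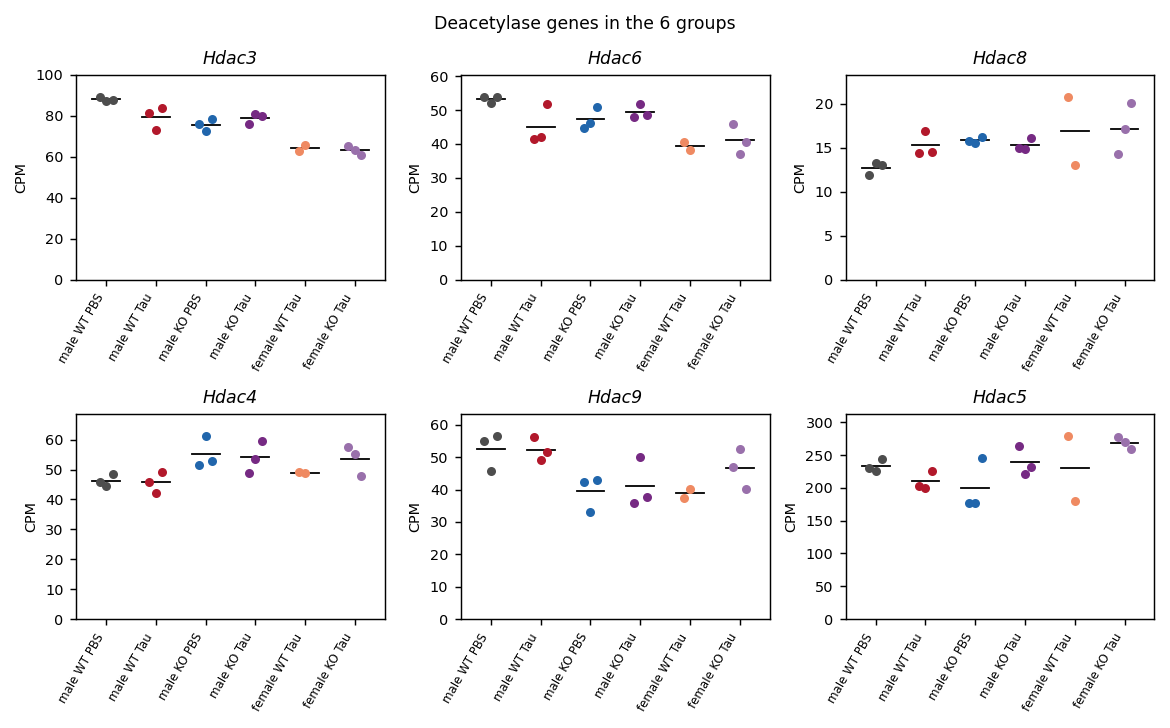
CPM of 6 deacetylase genes in the 6 groups; points are libraries and bars are means. WT PBS sits above the other male groups for Hdac3 and Hdac6 and below them for Hdac8, while Hdac4 means are higher and Hdac9 means lower in both male KO groups.

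Hdac1 and Hdac2 are closely related catalytic subunits of the Sin3, NuRD and CoREST complexes. In males, Hdac1 measured 17.8, 17.3 and 17.7 CPM in WT PBS and 19.7, 18.7 and 18.0 CPM in WT Tau. The Hdac1 levels were 20.47, 11.9 and 16.1 CPM in male KO PBS and 21.7, 15.1 and 15.8 CPM in male KO Tau. For Hdac1, females gave 18.3 and 21.5 CPM in WT Tau and 14.4, 17.1 and 21.02 CPM in KO Tau. Hdac1 was lowest in 752, at 11.9 CPM, and the KO PBS fold change was -0.12 (SE 0.18) on the log2 scale with that library and 0.06 without it. Hdac2 is the paralog most tied to memory in the hippocampus. Hdac2 stood at 89.9, 94.6 and 92.3 CPM in male WT PBS and at 99.1, 101 and 89.2 CPM in male WT Tau. Male knockouts gave Hdac2 levels of 101, 96.7 and 80.1 CPM under PBS and 87.2, 100.1 and 94.5 CPM under Tau. Among females, Hdac2 measured 85.9 and 101 CPM in WT Tau and 78.8, 91.0 and 94.0 CPM in KO Tau. Hdac2 had the interval -0.16 to 0.27 for Tau in WT and -0.19 to 0.24 for KO Tau against WT PBS, and its male groups overlapped in each pair.

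Hdac4, Hdac5, Hdac7 and Hdac9 are the class IIa deacetylases, which bind MEF2 transcription factors and leave the nucleus on calcium signals. Hdac4 is on chromosome 1 (chr1:91928779-92195699, minus strand). Hdac4 stood at 45.9, 44.5 and 48.4 CPM in male WT PBS and at 45.9, 42.2 and 49.3 CPM in male WT Tau. Male knockouts gave Hdac4 levels of 51.6, 61.3 and 52.7 CPM under PBS and 48.9, 53.7 and 59.6 CPM under Tau. Among females, Hdac4 measured 49.1 and 48.7 CPM in WT Tau and 57.6, 55.3 and 47.9 CPM in KO Tau. In 5 of the 6 male KO libraries Hdac4 exceeded all 6 male WT values, and 711 lay just below the highest WT value. The highest male Hdac4 values were in 752, 713 and 712, the libraries with the high neocortex marker means given above. The part of that tissue in the fold changes was not tested, and leaving out a single library does not address it. The log2 fold change was 0.26 (SE 0.10, unadjusted p = 0.0251) under PBS, 0.25 (SE 0.10, unadjusted p = 0.0301) under Tau and 0.25 (SE 0.07, unadjusted p = 0.00414) averaged over treatment (FDR 0.945). Without 711 the average was 0.28 (unadjusted p = 0.00155), without 752 it was 0.21 (unadjusted p = 0.0101), and without 712 or 713 it was 0.26 or 0.22. Over all 19 alternatives the Hdac4 average ran from 0.19 to 0.28 with FDR values of at least 0.275. In females the same contrast was 0.14 (SE 0.12), with the interval -0.14 to 0.41.

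Hdac9 lies on chromosome 12 (chr12:34047580-34917095, minus strand) and also gives a truncated MEF2-interacting isoform. In males, Hdac9 measured 55.1, 45.7 and 56.6 CPM in WT PBS and 56.4, 49.1 and 51.5 CPM in WT Tau. The Hdac9 levels were 42.5, 33.0 and 42.8 CPM in male KO PBS and 35.8, 50.05 and 37.7 CPM in male KO Tau. For Hdac9, females gave 37.5 and 40.2 CPM in WT Tau and 46.9, 52.6 and 40.1 CPM in KO Tau. In male KO PBS, Hdac9 lay below all WT PBS values, with its lowest value in 752. In male KO Tau it lay below all WT Tau values except for 712. The log2 fold change was -0.41 (SE 0.15, unadjusted p = 0.0178) under PBS, -0.34 (SE 0.15, unadjusted p = 0.0420) under Tau and -0.37 (SE 0.10, unadjusted p = 0.00413) averaged (FDR 0.945), and the average was -0.32 without 752 (unadjusted p = 0.00870) and -0.33 without 711 (unadjusted p = 0.00968). Without 712, where Hdac9 was highest among male KO libraries, the average was -0.45, and without 713 it was -0.34. Over 19 alternatives it ran from -0.45 to -0.32, with FDR values of at least 0.293. With the dentate granule marker score as a covariate the average was -0.38 for Hdac9 and 0.19 for Hdac4. The dentate markers summed to 322 to 923 CPM in male KO PBS and 300.5 to 709.7 CPM in male KO Tau, against 427 to 635 and 511 to 609 CPM in the WT groups. For KO against WT averaged over treatment, 1 of 12 dentate markers had a positive log2 fold change (median -0.20), as did 9 of 9 striatal markers (median 0.54), 5 of 8 neocortex markers (median 0.36) and 13 of 13 choroid plexus markers (median 1.44), with none of these passing the FDR. The part of these tissues in the values of Hdac4 and Hdac9 was not tested beyond the dentate covariate.

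Hdac5, the most abundant class IIa gene, had group means that crossed over. Hdac5 stood at 231, 226 and 244 CPM in male WT PBS and at 203, 200.1 and 226 CPM in male WT Tau. Male knockouts gave Hdac5 levels of 176, 176 and 245 CPM under PBS and 264, 222 and 233 CPM under Tau. Among females, Hdac5 measured 279 and 180.2 CPM in WT Tau and 277, 270.3 and 260.0 CPM in KO Tau. Under PBS, 2 of the 3 KO libraries (751 and 752) lay below WT, whereas under Tau the KO mean lay above the WT mean. The genotype by treatment interaction was 0.42 (SE 0.18, unadjusted p = 0.0397), with an FDR of 0.996, and 0.34 without 752 (unadjusted p = 0.0883). Without 711, the highest KO Tau library, it was 0.34 (unadjusted p = 0.0817), and without 712 it was 0.47 (unadjusted p = 0.0341). Hdac7 spanned 15.6 to 33.0 CPM over the 17 libraries and had no male comparison at an unadjusted p under 0.05.

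Hdac6, on chromosome X (chrX:7930120-7947889, minus strand), encodes the class IIb deacetylase of tubulin. In males, Hdac6 measured 54.0, 52.0 and 53.8 CPM in WT PBS and 41.3, 42.1 and 51.8 CPM in WT Tau. The Hdac6 levels were 44.8, 46.3 and 50.9 CPM in male KO PBS and 48.0, 51.8 and 48.4 CPM in male KO Tau. For Hdac6, females gave 40.6 and 38.1 CPM in WT Tau and 46.0, 37.2 and 40.5 CPM in KO Tau. Hdac6 thus had its 3 highest male values in WT PBS. Its log2 fold change was -0.25 (SE 0.10, unadjusted p = 0.0235) for Tau in WT and 0.31 (SE 0.13, unadjusted p = 0.0429) for the interaction, whose FDR was 0.996. The Hdac6 interaction was 0.29 without 752 (unadjusted p = 0.0730), 0.32 without 711 (unadjusted p = 0.0426) and 0.27 without 712 (unadjusted p = 0.0885). In DESeq2 fits of only the groups compared that left out 1 library, Hdac6 in WT Tau against WT PBS passed without 773 and Hdac5 in KO PBS against WT PBS without 753, and these were the sole member calls among the alternatives for the male comparisons.

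Hdac10, a polyamine deacetylase of class IIb, ranged from 11.1 to 19.9 CPM. Hdac11 stood at 247, 241 and 256 CPM in male WT PBS and at 243, 232 and 246 CPM in male WT Tau. Male knockouts gave Hdac11 levels of 244, 221 and 282 CPM under PBS and 219.9, 275 and 259.5 CPM under Tau. Among females, Hdac11 measured 228 and 186 CPM in WT Tau and 189.7, 205 and 206 CPM in KO Tau. The 4 male groups of Hdac11 overlapped, and the interval for KO Tau against WT PBS was -0.21 to 0.25. Sirtuins are NAD-dependent, with Sirt1, Sirt6 and Sirt7 in the nucleus, Sirt3, Sirt4 and Sirt5 in mitochondria and Sirt2 largely in the cytoplasm. In males, Sirt1 measured 17.3, 14.7 and 14.8 CPM in WT PBS and 15.6, 15.9 and 15.3 CPM in WT Tau. The Sirt1 levels were 15.7, 11.3 and 10.9 CPM in male KO PBS and 15.4, 15.0 and 13.8 CPM in male KO Tau. For Sirt1, females gave 18.0 and 16.97 CPM in WT Tau and 18.5, 19.3 and 19.1 CPM in KO Tau. KO PBS 752 and 753 held the lowest Sirt1 values of all libraries, and the log2 fold change of KO under PBS was -0.30 (SE 0.14, unadjusted p = 0.0563), and -0.23 without 752. Sirt2 is enriched in oligodendrocytes. Sirt2 stood at 86.7, 100.4 and 88.4 CPM in male WT PBS and at 93.8, 99.5 and 93.3 CPM in male WT Tau. Male knockouts gave Sirt2 levels of 85.8, 91.0 and 111 CPM under PBS and 119, 90.5 and 95.6 CPM under Tau. Among females, Sirt2 measured 115 and 94.1 CPM in WT Tau and 86.6, 86.7 and 86.6 CPM in KO Tau. Sirt2 was highest in 711, where the oligodendrocyte markers also had their highest mean among males, 7.91 log2 CPM against 7.06 in 712 and 7.34 in 713. The astrocyte markers had their highest male mean there too, 8.23 log2 CPM. In female KO Tau the oligodendrocyte means were 7.31, 7.80 and 7.32 log2 CPM in 314, 324 and 325, while Sirt2 hardly differed between these libraries. The part of these cell types in the Sirt2 values was not tested.

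Sirt6 deacetylates histone H3 at promoters and acts in DNA repair. Sirt6 stood at 15.7, 14.2 and 16.1 CPM in male WT PBS and at 13.3, 13.2 and 14.6 CPM in male WT Tau. Male knockouts gave Sirt6 levels of 13.4, 13.2 and 16.0 CPM under PBS and 13.3, 11.7 and 15.2 CPM under Tau. Among females, Sirt6 measured 9.45 and 12.1 CPM in WT Tau and 8.95, 10.5 and 9.44 CPM in KO Tau. The male groups of Sirt6 overlapped in all 5 pairs, and KO Tau against WT PBS was -0.19 (SE 0.12) on the log2 scale. Sirt3 had a log2 fold change of 0.13 (SE 0.06, unadjusted p = 0.0444) for KO averaged over treatment and Sirt4 of -0.36 (SE 0.16, unadjusted p = 0.0462) for KO under PBS, and neither passed the FDR. Without 711 the Sirt3 value was 0.10, and without 752 the Sirt4 value was -0.34. Sirt5 ranged from 8.45 to 11.4 CPM and Sirt7 from 25.9 to 39.5 CPM.

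The readers Brd2 and Brd3 bind acetylated histones through paired bromodomains and couple them to transcription. Brd2 stood at 236, 238 and 235 CPM in male WT PBS and at 224, 222 and 231 CPM in male WT Tau. Male knockouts gave Brd2 levels of 225, 218 and 234 CPM under PBS and 253, 222 and 224 CPM under Tau. Among females, Brd2 measured 215 and 217 CPM in WT Tau and 259, 237 and 214 CPM in KO Tau. Brd2 varied little in male WT PBS, and its values in WT Tau and in KO PBS were below those of WT PBS in every library, by log2 fold changes of -0.07 (SE 0.08) and -0.06 (SE 0.08). Brd3 is the less abundant of the pair. In males, Brd3 measured 67.1, 64.2 and 68.8 CPM in WT PBS and 67.0, 67.0 and 67.1 CPM in WT Tau. The Brd3 levels were 70.8, 58.6 and 68.4 CPM in male KO PBS and 64.0, 81.5 and 73.6 CPM in male KO Tau. For Brd3, females gave 57.3 and 60.1 CPM in WT Tau and 58.0, 56.0 and 61.7 CPM in KO Tau. Brd3 stayed between 64.2 and 68.8 CPM in both male WT groups, and the KO Tau values overlapped them. Its interval for Tau in WT ran from -0.22 to 0.21 on the log2 scale.

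In females, KO and WT were compared under Tau only. Of the 32 members 0 passed the FDR (0.00649% of all genes, which was Acss2) and 0 had an unadjusted p under 0.05 (2.89%). The libraries did not overlap for 5 members (16% of all genes), with Kat6a, Hdac10, Sirt1 and Sirt4 higher and Sirt2 lower in KO. The intervals lay within 1 log2 unit for all 32, but within 0.5 log2 units for 17, against 22 to 30 in the male pairs. The genotype effect was compared between the sexes by the interaction, which called 0 of 32 (0%) with 1 at the unadjusted level (2.94%). That member was Hdac9, with 0.26 (SE 0.16) for KO against WT in females and -0.34 (SE 0.15) in males under Tau, and an interaction of 0.60 (SE 0.22, unadjusted p = 0.0176), FDR 0.978. Over 18 alternatives the interaction ran from 0.51 to 0.76, and without female WT Tau 331 its unadjusted p was 0.0558. Without male KO Tau 711, the lowest of its group, the interaction was 0.52 (unadjusted p = 0.0302), and without 712 it was 0.76 (unadjusted p = 0.00181).

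Female and male libraries under Tau differed for many genes, and the members took part in this. Sex coincided with the number series of the libraries (3xx in females, 7xx in males), so sex and any difference in handling cannot be told apart. Averaged over genotype, 8 of 32 members passed the FDR against 23.8% of all genes (3674 of 15419), and 15 had an unadjusted p under 0.05 against 39.8%. The members' share was thus near that of other genes. Lower in females were the writers Kat2a, at -0.53 (SE 0.09, FDR 0.00720), and Kat7, at -0.48 (SE 0.09, FDR 0.00837), on the log2 scale. The erasers Sirt6, at -0.42 (SE 0.11, FDR 0.0201), Hdac3, at -0.31 (SE 0.07, FDR 0.0120), and Hdac11, at -0.27 (SE 0.09, FDR 0.0490), and the reader Brd3, at -0.26 (SE 0.08, FDR 0.0322), were also lower. Kat2b, at 0.52 (SE 0.16, FDR 0.0356), and Sirt1, at 0.27 (SE 0.08, FDR 0.0286), were higher. The paralogs Kat2a and Kat2b thus differed in opposite directions. All 5 female values lay outside the 6 male Tau values for 5 members (Sirt1 higher, and Kat2a, Kat7, Hdac3 and Brd3 lower), against 11% of all genes. Without 711 this held for 8 members, against 24.9%.

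Kat2a and Kat7 passed in each of the 18 alternatives of this comparison, Hdac3 in 17, Sirt6 in 15, Sirt1 in 12, Kat2b in 11, Brd3 in 7 and Hdac11 in 4. The count of 8 moved with single libraries, and the share of all genes called moved with it. Without female WT Tau 331, 2 members passed against 3.99% of all genes. Leaving out male WT Tau 773 gave 3 against 10.3%, male KO Tau 713 3 against 11.5% and male WT Tau 771 4 against 15.2%. It was 5 without female KO Tau 324 (17%), male KO Tau 712 (14.8%) or male WT Tau 772 (15.8%), and 11 without 711 (40.7%). Astrocyte markers moved with this comparison: 6 of 9 passed as higher in females, and they summed to 4487 to 6010.2 CPM in females and 2429.7 to 4367 CPM in male Tau libraries, the upper male value being 711. Microglial markers (5 of 10 higher, 635 to 769 against 490.5 to 671 CPM) and endothelial markers (5 of 8 higher, 265 to 329 against 171 to 267 CPM) moved the same way. Inhibitory neuron markers moved the other way (5 of 8 lower, 509 to 671 against 656 to 1083 CPM), and so did neocortex markers (4 of 8 lower, list median -0.81 on the log2 scale, 181 to 328 against 227 to 696 CPM). Of the markers of CA1, 2 of 8 were lower (351 to 861 against 649.7 to 1016 CPM), and 3 of 8 thalamic markers were higher (134 to 590.1 against 127 to 245 CPM). No marker of these lists was at 0 in every library, and the part of these cell types and regions in the members' differences was not tested. Library 711 lay inside the range of the other 5 male Tau libraries for 12 of the 32 members, as it did for 40.7% of all genes. Among the 8 members that passed, it lay inside the female range for Kat2b and Hdac11, between the ranges for Kat2a, Kat7 and Brd3, and inside the male range for Hdac3, Sirt1 and Sirt6.

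**Figure D5:**
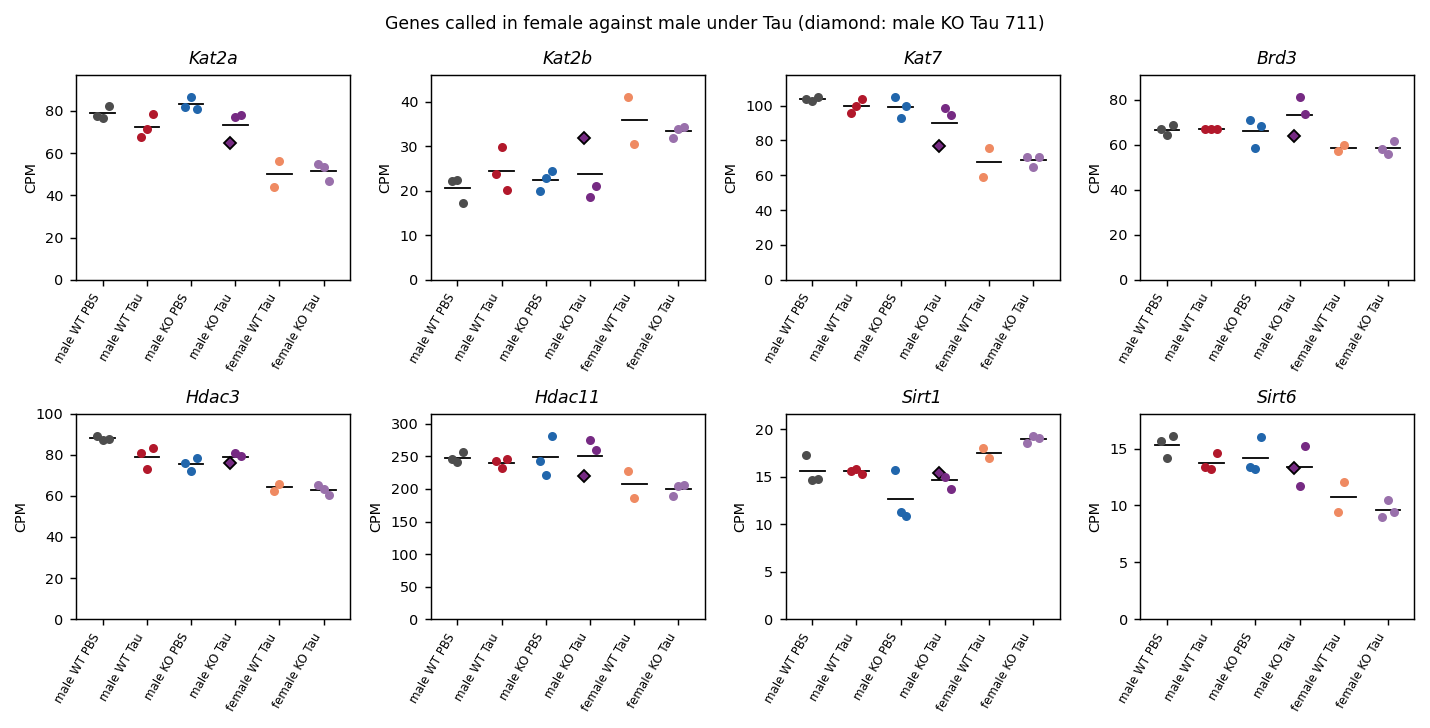
CPM in the 6 groups of the 8 genes called in female against male under Tau; points are libraries, bars are means and the diamond is male KO Tau 711. Female Kat2a and Kat7 values lie below all male values, and 711 is the male library nearest to them.

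The machinery around the members was examined through 4 lists. They held 40 subunits of acetyltransferase complexes, 40 subunits of deacetylase complexes, 31 other bromodomain and YEATS readers and 11 genes of acetyl-CoA supply, and all were tested. In each KO against WT comparison of the males and in that of the females, 1 gene of the 122 passed the FDR, and this was Acss2 (log2 fold change -3.62 averaged over treatment in males and -2.86 in females). Tau against PBS called 0 of the 122 in either male genotype by edgeR. At an unadjusted p under 0.05 there was 1 gene in WT males, the carnitine acetyltransferase Crat (-0.24 on the log2 scale). In KO males there were 4 acetyltransferase subunits, 3 deacetylase subunits, 2 readers and 1 gene of acetyl-CoA supply, against 7.95% of all genes. KO against WT under PBS held 4 of 31 readers, all higher in KO, 1 of 40 deacetylase subunits and 0 of 40 acetyltransferase subunits, against 4.42% of all genes. Under Tau the same contrast held 6 of 40 acetyltransferase subunits (2 higher and 4 lower in KO), 3 of 40 deacetylase subunits and 1 of 31 readers, against 4.71%. KO against WT averaged over treatment held at that level 2 of 40 acetyltransferase subunits, 3 of 40 deacetylase subunits and 2 of 31 readers, with 4.58% of all genes at that level. Among these were the NuRD remodeller Chd4, at 0.22 (unadjusted p = 0.0123) on the log2 scale, the Sin3 subunit Sap30, at -0.39 (unadjusted p = 0.0169), and the reader Baz1b, at 0.19 (unadjusted p = 0.00567). For Tau against PBS averaged over genotype, the NuRD subunit Gatad2b had the smallest p in the deacetylase list, at -0.28 (unadjusted p = 0.00594).

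In female against male under Tau, 8 of 40 acetyltransferase subunits passed, all lower in females, and the median over the list was -0.13 against -0.01 over all genes. They were Tada3 (-0.54, FDR 0.00632), found in both SAGA and ATAC, Tada2a (-0.48, FDR 0.0288), of ATAC, Supt3 (-0.46, FDR 0.0255) and the deubiquitinase Usp22 (-0.33, FDR 0.0325), of SAGA, and Dmap1 (-0.53, FDR 0.00795), of the Kat5 complex. The other 3 were the paired helicases Ruvbl1 (-0.38, FDR 0.0416) and Ruvbl2 (-0.28, FDR 0.0192) and the scaffold Wdr5 (-0.28, FDR 0.0222), which also serve complexes of other kinds. Of the deacetylase subunits 12 of 40 passed, 11 lower and 1 higher, with a list median of -0.15. The lower ones included the NuRD subunit Mta1 (-0.36, FDR 0.00772) and the CoREST demethylase Kdm1a (-0.32, FDR 0.0176), and the higher one was Mier1 (0.48, FDR 0.00883). Of the readers 6 of 31 passed, 4 lower, among them the remodeller ATPase Smarca4 (-0.48, FDR 0.00932), and 2 higher, Phip (0.38, FDR 0.0137) and Atad2b (0.44, FDR 0.0197). In acetyl-CoA supply, the citrate lyase Acly (-0.32, FDR 0.0401) and the citrate carrier Slc25a1 (-0.23, FDR 0.0474) were lower, and the mitochondrial acetyl-CoA synthetase Acss1 (0.58, FDR 0.0266) and the acetyl-CoA transporter Slc33a1 (0.25, FDR 0.0426) were higher. The shares of the 4 lists, like that of the 32 members, stand beside 23.8% over all genes, and the cell type markers given above moved with them.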

How the data were processed

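Poly(A) RNA of 17 dorsal hippocampus libraries was sequenced. The authors deposited unnormalized counts, with a row for each gene symbol. According to the methods, the authors aligned reads with RNA-STAR 2.5.2 to GRCm38 and counted exons with HTSeq 0.9.1 in reverse-stranded mode; the annotation release was not stated. Groups came from the labels. Totals ran from 14183131 to 22463635 counts per library; precision covers counting and the spread between these libraries only.

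Differences were tested in edgeR 4.0.16 (R 4.3.3) by its quasi-likelihood F-test after TMM scaling and a filterByExpr filter (at least 10 counts, 15 in total), with Benjamini-Hochberg adjustment at an FDR of 0.05. A fit held the 12 male libraries (15098 genes), and another the 11 Tau libraries (15419 genes). CPM values are scaled by TMM over all 17 libraries. Exon lengths and gene positions came from GENCODE M21 (GRCm38), promoters from RefSeq. DESeq2 1.42.0, limma 3.58.1 (voom with quality weights), other normalizations and filters, other sets of libraries, a dentate granule covariate and leaving out each library were the alternatives. The scripts were tested on simulated data, on which DESeq2 made false calls more often than edgeR. Where the simulated counts had each gene's own spread, the share of false calls was above the nominal level for every tool, edgeR included. Calls at an FDR of 0.05 may thus hold more false ones than that level states.

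The 32 genes, the 4 pathway lists and the 13 marker lists were chosen with earlier results of these data known. Values by library are given for 16 members selected for their role, for every member passing the FDR and for up to 3 members per comparison with the smallest unadjusted p under 0.05. Pathway genes are named where they passed the FDR, or as up to 3 per list with the smallest unadjusted p; in female against male, examples of those that passed are named.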

Additional observations from a re-analysis of the deposited data

How the results depend on the processing

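The members called were recounted under other tools, normalizations, filters, sets of libraries, a dentate granule covariate and without each library. Of 307 recounts, 298 stayed within 1.5 times the reported count. In every comparison except female against male the reported count was 0, so a recount stayed only by being 0 again. The pooled share therefore says little about stability. The 9 that moved came from fits without a library, and all but the DESeq2 fits named below were of female against male under Tau. There the count ran from 2 to 11, beside 8 and 23.8% of all genes with all libraries. It was 2 without female WT Tau 331 (3.99% of all genes called) and 3 without male WT Tau 773 (10.3%) or male KO Tau 713 (11.5%). Without male KO Tau 711 it was 11 (40.7%), still within 1.5 times. In DESeq2 fits that held only the groups compared and also lacked a library, Tau against PBS in male WT ran from 0 to 1 (Hdac6 without 773) and KO against WT in male PBS from 0 to 1 (Hdac5 without 753). Here tool, groups and library changed together, and edgeR called 0 members without those libraries; the cause was not tested. No log2 fold change of a named member reversed among 672 values from 27 results, of which 629 kept their side of the FDR, 42 no longer passed it, all in female against male, and 1 passed it in place of missing it. Most of the 27 results had not passed the FDR to begin with, so they had no call to lose. Among the 8 that had passed, calls held in 18 of 18 alternatives for Kat2a and Kat7, but in only 4 of 18 for Hdac11. Fits of only the groups compared were not run where those groups are all groups of the fit. No paired analysis was possible because the replicate numbers in the labels are not shared between groups. With 2 or 3 libraries per group, the intervals of the male pairs reach up to 0.805 log2 units, so a difference smaller than that could have been missed.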
